A study of Mus musculus with 4 samples.

Results

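Osteoprogenitor-like stroma is the population of bone marrow stromal cells that carries early bone-lineage genes, with genes of mature osteoblasts at lower levels than in osteoblasts. Here 607 such cells were found among 18543 cells that passed the filters, from femurs of immunodeficient mice with and without a human lymphoma graft. They were chosen by their own counts. A member had 1 or more UMIs (unique molecular identifiers, each marking 1 captured RNA molecule) in at least 2 of Kcnk2, Lrp4, Mmp13, Slit2, Slitrk6 and Angpt4, and 1 or more UMIs of Alpl. It had no UMI of Ifitm5 (mature osteoblasts), Cdh5 (endothelium) or Adipoq (adipocyte-primed stroma), and fewer than 20 Col2a1 UMIs (cartilage) per 10000. The rule found 105 members of 4151 cells in Ctrl, 132 of 4570 in Sham_D40, 169 of 4902 in Graft_D19 and 201 of 4920 in Graft_D40. Since these genes selected the cells, their levels below are a description and support nothing.

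All mice were C57BL/6 and Rag2-/-gammac-/-, so every group, controls included, lacked T, B and NK cells of its own. Ctrl mice were neither injected nor grafted. Sham_D40 mice were injected with buffered saline and taken at day 40. Graft_D19 and Graft_D40 mice were injected with DOHH2 cells, an established human B-cell lymphoma line, and taken at day 19 (labelled early) or day 40 (labelled late). Age, sex and the number of mice pooled in a library are not given in the sources used here. Bone and marrow were digested together and sorted on CD51 and CD200 for stroma (without CD45, Ter119 or CD31), on CD31 and Sca1 for endothelium and on human CD20 for lymphoma cells, and profiled by droplet 3-prime RNA sequencing. Each group was a single library, so nothing below has a replicate check. Intervals are at 95% (exact binomial for shares, exact conditional binomial for ratios) and cover counting error only, and no p-value across libraries was computed.

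Osteoprogenitors sit between the CXCL12-rich reticular stroma that houses blood stem cells and the osteoblasts that lay down bone. RUNX2 and its target Sp7 (osterix) commit cells to the bone lineage, tissue-nonspecific alkaline phosphatase (Alpl) frees phosphate for mineral, and osteocalcin (Bglap) marks later maturation. Collagenase 3 (Mmp13) cuts fibrillar collagen and is made by bone-lineage cells and hypertrophic cartilage. Osteopontin (Spp1) and periostin (Postn) are matrix proteins of bone surfaces and of remodelling connective tissue.

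Mmp13 and Spp1 are the marker genes on which most results below turn, and their promoters are shown because both are known RUNX2 targets. Each window below, from RefSeq on GRCm38.p6, covers the 250 bases before the annotated start on the plus strand. Capitals mark the RUNX core ACCACA, sought on both strands. The first is chr9:7272264-7272513 (Mmp13) and the second chr5:104434861-104435110 (Spp1).
Mmp13: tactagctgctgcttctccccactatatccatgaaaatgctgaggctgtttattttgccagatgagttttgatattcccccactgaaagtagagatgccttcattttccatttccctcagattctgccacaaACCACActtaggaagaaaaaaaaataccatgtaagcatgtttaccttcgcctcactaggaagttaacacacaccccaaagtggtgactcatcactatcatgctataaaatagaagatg
Spp1: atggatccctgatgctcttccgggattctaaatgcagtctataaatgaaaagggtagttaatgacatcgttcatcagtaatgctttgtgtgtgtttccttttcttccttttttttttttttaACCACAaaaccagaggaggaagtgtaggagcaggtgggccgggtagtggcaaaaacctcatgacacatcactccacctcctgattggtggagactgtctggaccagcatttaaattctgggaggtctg
Only the first listed window of each gene was counted. The core was in that window in 5 of the 20 genes with one, among the 10 marker and rule genes sought (Runx2 included) and the 15 genes that stood highest in the cells, and in 14.05% of all 32851 windows, later windows included. Those 5 genes were Mmp13, Spp1, Angpt4, Runx2 and Mmp14. The AP-1 motif TGANTCA was in 2 of 20 first windows (6.75% of all windows), CTTTGA, read by TCF/LEF factors, in 3 (13.8%), and the GC box GGGCGG in 12 (32.7%). The motifs were searched over the same 250 bases on both strands, and a match describes letters only.

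The members of a library summed to between 418594 UMIs (Ctrl) and 2948821 UMIs (Graft_D40). Median UMIs per member were lowest in Ctrl (3264), then Sham_D40 (8652.5), Graft_D19 (9260) and Graft_D40 (11399), so a gene was detected least easily in Ctrl. A count of 3, the limit that a count of 0 allows, stood for 7.17, 2.34, 1.74 and 1.02 CPM in that order. CPM is the usual count scaled to library size. To obtain it, UMIs were added up across cells of 1 kind within a library before division by their total. No member barcode was shared between libraries, and 4 to 10 of all kept barcodes were shared by a pair of libraries.

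The marker genes named for the population were detected in each library. In Ctrl, Sham_D40, Graft_D19 and Graft_D40, Spp1 was at 46326, 21957, 27189.9 and 24979.8 CPM and Mmp13 at 5368, 5904, 6803 and 2949 CPM. Alpl was at 1111, 1171, 1039 and 759.6 CPM and Postn, which the rule did not use, at 614, 561, 654 and 651 CPM. These levels were compared with 3 classes of the same libraries set by UMIs: an osteoblast class (Ifitm5 detected), a LepR class (Lepr and Adipoq detected) and an endothelial class (Cdh5 and Pecam1 detected). The 6 population markers were Mmp13, Kcnk2, Lrp4, Spp1, Alpl and Postn. In members they summed to 54533, 30411, 36384 and 29780 CPM, and in the osteoblast class to 58772, 29896, 16814.5 and 14341 CPM. The sum thus did not set the members apart from osteoblasts in Ctrl and Sham_D40. In the LepR class it was 7611, 4739, 4421 and 6230 CPM. Postn was at 264, 359.9, 159.7 and 112 CPM in the osteoblast class and 13.1, 18.9, 19.1 and 37.4 CPM in the LepR class, below the members in each library. In the endothelial class, which should lack it and so shows free RNA, it was at 6.09, 3.01, 5.69 and 12.2 CPM.

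Transcription factors of the bone lineage were detected in each library, and osteocalcin was lower than in osteoblasts. Runx2 was at 674, 610.2, 569.8 and 299 CPM and Sp7 at 167, 203, 152 and 86.1 CPM in the members, and Dlx5, another osteoblast homeobox factor, at 346, 272, 284 and 140.1 CPM. Graft_D40 was the lowest of the libraries for each of these 3 genes. Bglap was at 1056, 601, 360.5 and 276 CPM in the members and 40130.5, 20292, 18977 and 35219.5 CPM in the osteoblast class, so the members held far less osteocalcin message than osteoblasts in each library. Of 10 endothelial markers none reached 20 CPM (summed level 23.3 to 66.9 CPM), and 11 haematopoietic markers summed to 12.6 to 50.2 CPM, with Cd79a at 0 in Ctrl, Sham_D40 and Graft_D19. Erythroid markers summed to 339, 152, 162 and 24.8 CPM, Schwann markers to 552, 337, 315 and 174 CPM, and 12 chondrocyte markers to 853, 1489, 1665 and 940.4 CPM. LepR markers summed to 11964, 12235, 11589 and 5596 CPM with Adipoq at 0 by the rule, and osteoblast markers to 18390.1, 10508, 13267 and 11311 CPM with Ifitm5 at 0. Shares of members with a Postn UMI, after each cell was thinned to 2000 UMIs, were 44.8, 47.2, 39.4 and 47% against 0.294, 0.323, 0.375 and 0.627% of the endothelial class. Unthinned they were 57.1, 69.7, 57.4 and 68.2% and 0.43, 1.15, 1.82 and 2.09%, at median depths of 3264 to 11399 UMIs in members and 4096 to 8638.5 in endothelium.

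**Figure D1:**
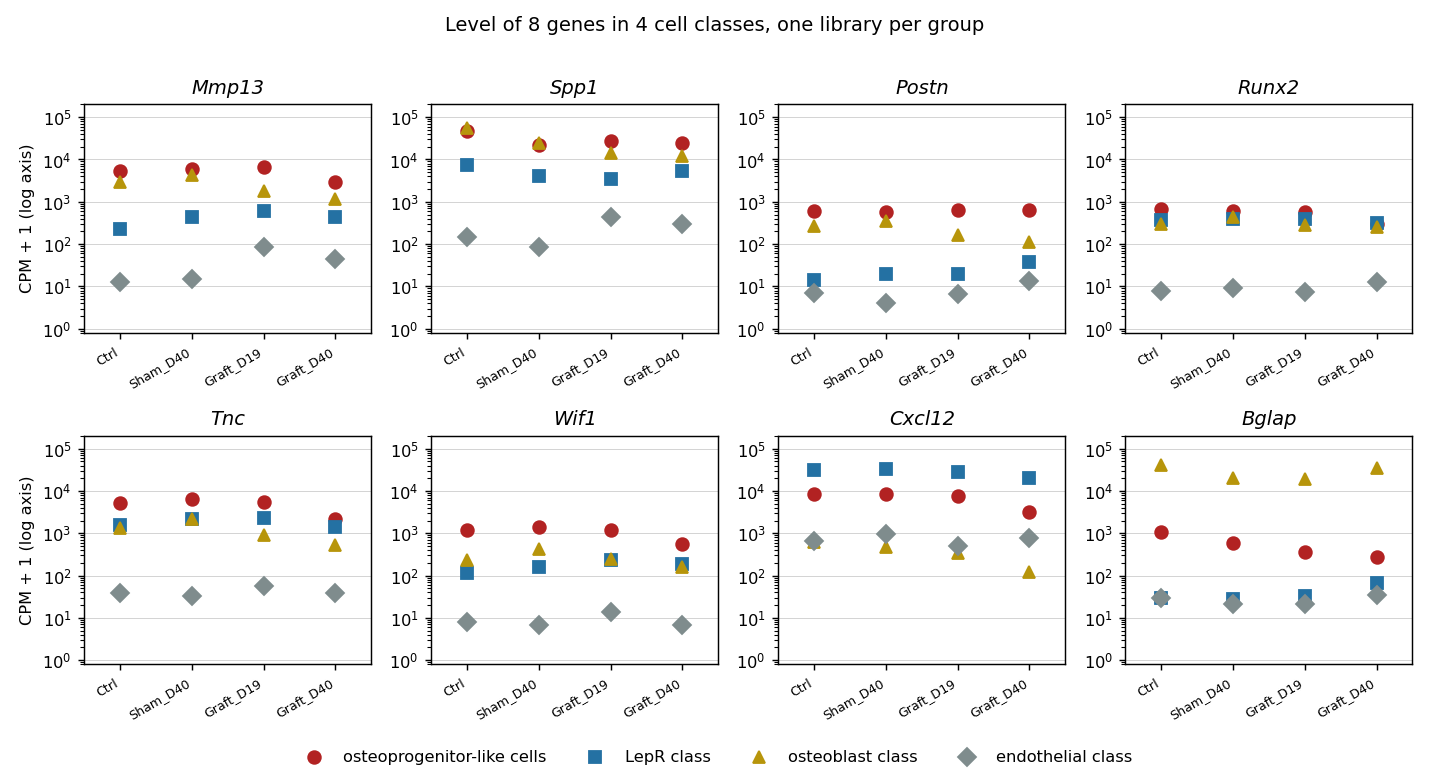
Level of 8 genes (CPM + 1, log axis) in the osteoprogenitor-like cells (circles) and in the LepR, osteoblast and endothelial classes, for each of the 4 libraries; a point is 1 library and there are no error bars. Among the cells shown, Postn, Tnc and Wif1 were highest in the osteoprogenitor-like cells in each library, Cxcl12 in the LepR class and Bglap in the osteoblast class. Cartilage cells and fibroblasts are not shown.

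The cells stood between reticular stroma and osteoblasts over many genes. Of 67 genes at least 4-fold higher in the osteoblast than in the LepR class in all 4 libraries (at 50 CPM or more in the osteoblast class, genes of the class rules left out), the members lay between both classes in 54, 61, 61 and 64 genes in Ctrl, Sham_D40, Graft_D19 and Graft_D40. Of 275 genes at least 4-fold higher in the LepR class they lay between in 243, 261, 269 and 271. On the log2 scale the members stood a median of 56.9%, 53.4%, 49.1% and 38.3% of the way from the LepR to the osteoblast level in the first group. Graft_D40 was thus the library whose members sat nearest the LepR class for osteoblast genes. This did not hold for the second group. There the members stood a median of 62.1%, 58.8%, 66.2% and 63.8% of the way from the osteoblast to the LepR level, nearest the LepR class in Graft_D19. Cxcl12, the chemokine that retains stem cells, shows the pattern, with 8521, 8426, 7817 and 3272 CPM in members, 32097, 33665, 28127 and 20506 CPM in the LepR class and 627, 465, 333 and 120.0 CPM in osteoblasts. Since the rule kept out cells with Adipoq or Ifitm5, which define the other classes, an intermediate level is in part built in and is not a test.

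A smaller set of genes was higher in the members than in both classes. Of 2524 genes at 50 CPM or more in the members of all 4 libraries, 11 (0.436%) were at least 2-fold above both the LepR and the osteoblast class in each library. These 11 were the rule genes Kcnk2 and Angpt4, whose choice fixes their place, and the first 9 of a ranking by the smallest of the 4 ratios without rule genes. Among the top 15 of that ranking, whose last 6 did not reach 2-fold in each library, were the Wnt antagonist Wif1, the secreted proteins Ccdc3 and Ndnf, the collagens Col3a1, Col12a1 and Col6a3, the membrane protease Mmp14, the bone growth factor Clec11a (osteolectin) and the Notch target Hey1. Cartilage cells and fibroblasts were not part of that ranking. In the clustering described below, Col12a1 is a leading gene of a cluster with 7 of 12 chondrocyte markers. Col3a1 is a leading gene of one with 11 of 12 fibroblast markers. Col3a1 came from few cells, as 5 members held 87.0%, 60.7%, 63.4% and 25.1% of its UMIs in the 4 libraries. A Col3a1 UMI was found in 9.2, 28.3, 27.5 and 47.0% of thinned members. It was at 4823 CPM in members with 2 rule genes and 442 CPM in those with 6, so it does not describe the population as a whole. Wif1 was at 1189.7, 1442, 1218 and 563 CPM, or 4.98, 3.44, 5.01 and 2.94 times the higher of the other 2 classes. Ndnf was at 263, 480.1, 259 and 210.3 CPM, 4.19, 6.996, 2.85 and 3.62 times the higher class. Tenascin C (Tnc), a matrix protein of remodelling tissue that is not among these 15, reached 5303, 6314, 5465 and 2233 CPM against 1579, 2142, 2255 and 1441 CPM in the LepR class. A UMI of Wif1 was found in 73.6, 74, 74.4 and 55.1% of thinned members and in 0.734, 0.754, 1.59 and 0.896% of thinned endothelial cells (unthinned 85.7, 89.4, 89.9 and 73.6% and 1.18, 3.04, 3.83 and 2.69%).

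Mmp9 (gelatinase B) led the set, but its message came from few cells. Its level in members was 100.3, 331, 578 and 283 CPM, and 5 cells held 90.5%, 98.1%, 82.8% and 93.2% of its UMIs. Osteoclasts are a known source of Mmp9. In the members that clustered together (below), the osteoclast genes Dcstamp, Calcr and Oscar had 0 UMIs in all 4 libraries, Ocstamp and Atp6v0d2 had 0 in 3 libraries and 2 and 1 in Sham_D40, and Acp5 had 5, 1, 1 and 2. Ctsk and Itgb3, osteoclast genes that other cells also express, were detected in more cells. Ctsk had 72, 157, 239 and 211 UMIs in 39, 70, 88 and 68 cells, and Itgb3 had 11, 68, 70 and 66 UMIs in 11, 44, 47 and 38 cells. The part of osteoclast RNA in these levels was not tested. Dmp1, an osteocyte matrix gene, and Dkk1, a Wnt inhibitor, were as concentrated, with 5 cells holding 86.6% and 100.0% of their UMIs in those Graft_D40 cells. Levels of these 3 genes describe a few cells and not the population.

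Nearly all members of the ungrafted libraries lay in one expression cluster, and those of Graft_D40 were spread over several. In a clustering of all kept cells, a cluster led by Mmp13, Mmp9, Spp1, Kcnk2 and Dmp1, with 6 of 6 population markers 2-fold or more above the level of the remaining cells, held 99 of 105 members in Ctrl and 119 of 132 in Sham_D40. It held 137 of 169 in Graft_D19 and 102 of 201 in Graft_D40 (94.3%, 90.2%, 81.1% and 50.7%; exact binomial interval 43.6 to 57.9% in Graft_D40). In Graft_D40, 57 members lay in a cluster led by Cxcl13, Col8a1, Heyl and Ltbp2 (7 of 12 LepR markers), 18 in a fibroblast-like cluster led by Clec3b, Dpt and Col14a1 (11 of 12 fibroblast markers), and 15 in a cluster of dividing cells whose leading genes include Mki67 and Top2a. In Graft_D19 these clusters held 12, 7 and 2 members. Members in the first cluster are called Mmp13-led below. The cluster is not the same as the population, as 457 of its 1247 cells met the member rule. Members made 38.7%, 32.4%, 33.7% and 47.0% of its cells in Ctrl, Sham_D40, Graft_D19 and Graft_D40. The split of members into Mmp13-led and other cells was chosen after the clusters were seen. It rests on genes of the clustered cells, so it is a description.

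The 99 Graft_D40 members outside the Mmp13-led cluster had less Mmp13 and Spp1 than the 102 inside it. Mmp13 was at 6467 CPM inside it, at 652 CPM in the Cxcl13-led cells and at 607 CPM in the dividing cells, and Spp1 at 57324, 7360 and 5726 CPM. Postn was at 580.4 CPM in Mmp13-led cells, 574 CPM in Cxcl13-led cells, 332 CPM in dividing cells and 1805 CPM in members of the fibroblast-like cluster, so it was not lower in all of them. The Cxcl13-led cells kept more Cxcl12, at 7790 CPM against 3196 CPM. Those in the fibroblast-like cluster had Mmp13 at 2102 CPM, Col3a1 at 14619 CPM and the matrix proteoglycan Aspn at 2079 CPM, against 1038 and 0.942 CPM (1 UMI) for the latter pair in Mmp13-led cells, although they had no UMI of Clec3b. The 15 dividing cells had a median of 40062 UMIs and supplied 24.2% of all member UMIs of Graft_D40, while the Mmp13-led cells supplied 36.0%. Sums over all members of Graft_D40 therefore mix cell kinds, and each comparison below is given for all members and for the 457 Mmp13-led members alone.

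**Figure D2:**
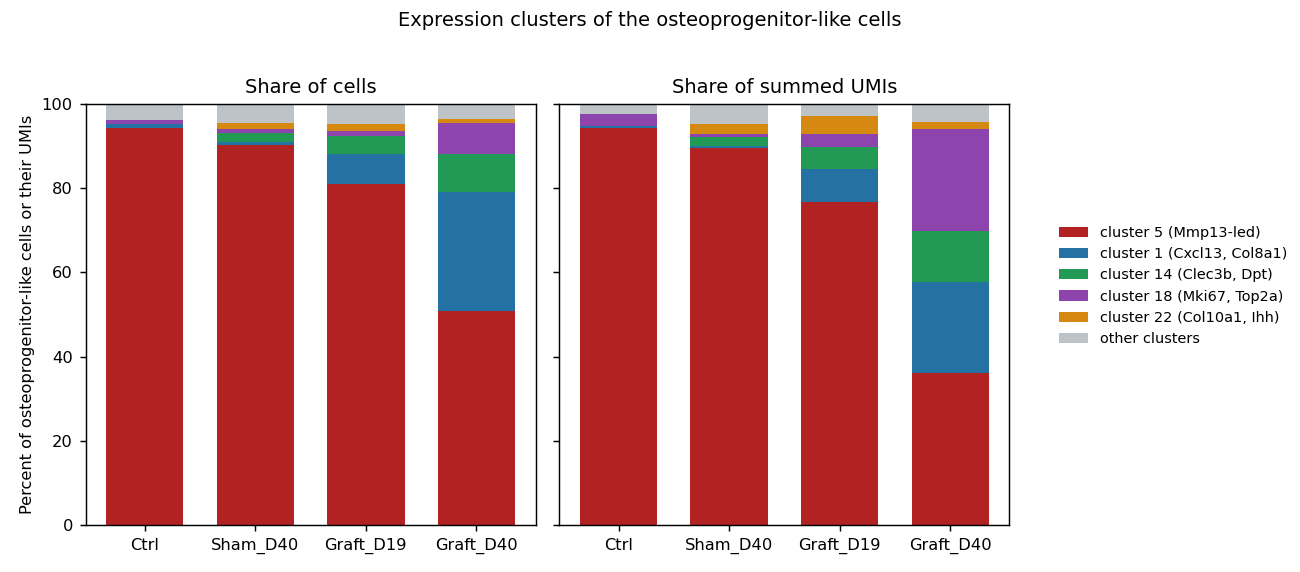
Percent of osteoprogenitor-like cells (left) and of their summed UMIs (right) in each expression cluster, by library; bars are stacked to 100%. The Mmp13-led cluster held 94.3% of the cells in Ctrl and 50.7% in Graft_D40, and the dividing cells of Graft_D40 held 7.46% of the cells and 24.2% of the UMIs.

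Members also differed in how many of the 6 rule genes they showed. All 6 were detected in 4, 22, 27 and 20 members of Ctrl, Sham_D40, Graft_D19 and Graft_D40, and exactly 2, the least the rule allows, in 19, 13, 25 and 47. The 104 cells just inside the rule had Spp1 at 16122 CPM and the cytoskeletal gene Limch1 at 472 CPM, and 40.4% of them were Mmp13-led. The 90 cells just outside it, with 1 rule gene, had 2596 and 82.9 CPM, and 10.0% lay in the Mmp13-led cluster. These values pool the 4 libraries, which did not all go the same way. Spp1 was higher with 2 rule genes than with 1 in Ctrl, Graft_D19 and Graft_D40, but lower in Sham_D40 (3710 against 5355 CPM). Limch1 was higher in Sham_D40, Graft_D19 and Graft_D40, but lower in Ctrl (702 against 834 CPM). In cells with 5 rule genes Spp1 was at 35509 CPM and 92.9% were Mmp13-led. The rule genes Mmp13, Kcnk2, Angpt4 and Lrp4 are leading genes of that cluster, as are Spp1 and Limch1. A rise with the number of rule genes is thus in part built in and is not a test. Median depth was 9852.5, 6699, 8405 and 11272 UMIs in cells with 1, 2, 5 and 6 rule genes, and the part of depth was not tested.

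The share of the population among Cdh5-negative cells depended on how depth was treated. Unthinned it was 4.10% (exact binomial interval 3.36 to 4.94%) in Ctrl, 4.33% (3.64 to 5.12%) in Sham_D40, 5.15% (4.42 to 5.96%) in Graft_D19 and 6.07% (5.28 to 6.94%) in Graft_D40. With every cell thinned to 2000 UMIs before the rule was applied, it was 3.74%, 4.22%, 4.92% and 3.53% (2.94 to 4.20% in Graft_D40). By point value Graft_D40 went from the highest to the lowest library, but its interval overlaps that of Ctrl (2.97 to 4.64%). Thinning can also remove UMIs of the genes that the rule excludes, so it does not only drop cells. Sham_D40 had 132 members before thinning and 136 after it. Cells under 2000 UMIs, left out of the thinned values, numbered 1090, 153, 342 and 246. The Mmp13-led members alone made 3.86%, 3.91%, 4.18% and 3.08%. The sort gate on CD51 and CD200 can set such shares, and its part was not tested.

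**Figure D3:**
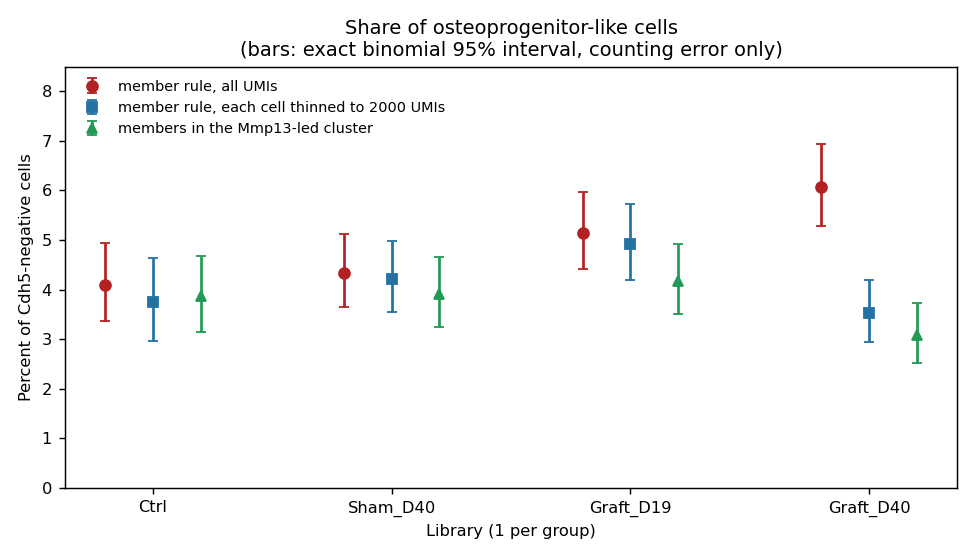
Percent of Cdh5-negative cells that met the member rule with all UMIs (circles), after thinning of each cell to 2000 UMIs (squares), and that met it and lay in the Mmp13-led cluster (triangles), by library; bars are exact binomial 95% intervals. Graft_D40 is the highest library for circles (6.07%) and the lowest for squares (3.53%) and triangles (3.08%).

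The comparison of Graft_D40 with Sham_D40 asks how the cells differed at the late stage of the graft from those of saline-injected mice of the same day. Genes were called where the ratio reached 2-fold and its interval left out 1, among genes at a mean of 20 CPM or more over both libraries. Log2 ratios carry a pseudocount of 1 CPM. Over all members 282 of 6818 genes were called higher (4.14%) and 288 lower (4.22%), and among Mmp13-led members 130 of 6836 were higher (1.9%) and 133 lower (1.95%). Of the genes called over all members, 82 of the 282 higher (29.1%) and 87 of the 288 lower (30.2%) were also called in Mmp13-led members, or 63.1% and 65.4% of the calls there. With size factors in place of total UMIs, 62.2% of calls over all members were higher, against 49.5% with totals. The median log2 ratio of all tested genes was -0.11 over all members and -0.05 in Mmp13-led members.

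Secreted Wnt, CCN and matrix genes were among those higher in Mmp13-led cells of Graft_D40. Sfrp4, a secreted Wnt antagonist (chromosome 13, 19623104 to 19632994, plus strand of mm10), was at 73.5, 54.8, 80.3 and 621 CPM in Ctrl, Sham_D40, Graft_D19 and Graft_D40, and 11.3-fold (95% interval 8.74 to 14.9) higher in Graft_D40 than in Sham_D40. Ccn5, a matricellular protein of the CCN family (chromosome 2, 163820861 to 163833146, plus strand), was at 55.7, 44.4, 127 and 412 CPM, 9.28-fold (95% interval 6.93 to 12.7) higher. Both were highest in Graft_D40, and the other 3 libraries lay together for Sfrp4, whereas Graft_D19 lay between for Ccn5. A Sfrp4 UMI was found in 9.64, 6.14, 9.92 and 42.6% of thinned Mmp13-led cells and 1.03, 2.26, 0.844 and 1.34% of thinned endothelial cells (unthinned 14.1, 20.2, 23.4 and 65.7% and 2.15, 5.35, 3.01 and 4.52%, at median depths of 3291 to 9254.5 and 4096 to 8638.5 UMIs). In the LepR class Sfrp4 did not show this order, at 778, 969.7, 659 and 507 CPM.

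Other genes higher in these cells encode matrix and collagen-binding proteins. Col6a1, a chain of the pericellular collagen VI, was at 187, 271, 288 and 1045 CPM, 3.85-fold (95% interval 3.39 to 4.38) higher in Graft_D40 than in Sham_D40. Aebp1, a secreted collagen-binding protein, was at 91.2, 92.2, 109.9 and 505 CPM, 5.48-fold (95% interval 4.44 to 6.81) higher. Ltbp2, which binds fibrillin microfibrils, was at 20.3, 15.7, 37.9 and 147 CPM, 9.38-fold (95% interval 5.75 to 16.2) higher. Thinned shares of Mmp13-led cells with a Col6a1 UMI were 26.5, 32.5, 34.4 and 58.4%, against 0.294, 2.37, 2.81 and 4.39% in endothelium (unthinned 34.3, 62.2, 60.6 and 81.4% and 1.4, 7.13, 8.29 and 14.7%). For Aebp1 they were 12, 13.2, 15.3 and 38.6% against 3.82, 4.42, 9.66 and 9.05% (unthinned 17.2, 35.3, 35 and 60.8% and 7.95, 16.4, 29.1 and 24.3%). Graft_D40 had the largest share in both. Fbln1, Fmod, Enpp1, Heyl, Ctsc, Qsox1 and Fkbp11 completed the 12 genes named by rank, with levels in Graft_D40 of 69.7 to 296 CPM. High levels of these genes were not particular to Mmp13-led cells. In Cxcl13-led members of Graft_D40, Ccn5, Ltbp2 and Col6a1 were higher, at 839, 398 and 2005 CPM, while Sfrp4 was lower, at 539 CPM. Ccn5, Ltbp2, Heyl and Fbln1 are leading genes of the Cxcl13-led cluster. That cluster held 55 kept cells in Sham_D40 and 1231 in Graft_D40.

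Cxcl12 and the proteoglycans Ogn and Omd were among the genes that ranked lower. Cxcl12 (chromosome 6, 117168535 to 117181367, plus strand) was at 8625, 9052, 7194 and 3196 CPM in Mmp13-led members, 2.83-fold (95% interval 2.72 to 2.94) lower in Graft_D40 than in Sham_D40. Ogn (osteoglycin), a small proteoglycan of bone, was at 1044, 778, 476 and 288 CPM, 2.7-fold (95% interval 2.37 to 3.08) lower, and Omd (osteomodulin) at 307, 299, 162 and 112 CPM. Ogn was lowest in Graft_D40 and next lowest in Graft_D19. Col6a5, a further collagen VI chain, went against Col6a1, at 383, 280.2, 174 and 58.4 CPM, 4.8-fold (95% interval 3.65 to 6.4) lower. A Col6a5 UMI was found in 39.8, 36, 25.2 and 12.9% of thinned Mmp13-led cells and 0.587, 0.647, 0.563 and 0.448% of endothelial cells (unthinned 49.5, 46.2, 42.3 and 21.6% and 1.5, 3.04, 1.82 and 1.04%). Car3, a carbonic anhydrase abundant in osteoblasts, was at 524, 649, 469.8 and 187 CPM, 3.48-fold (95% interval 2.97 to 4.09) lower, and Grem1, a BMP antagonist, at 182, 212, 185 and 85.7 CPM, 2.48-fold (95% interval 1.94 to 3.19) lower. Panx3, Esm1, Cpxm1, Comp, Gas6 and Ism1 were the other genes named by rank on this side.

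**Figure D4:**
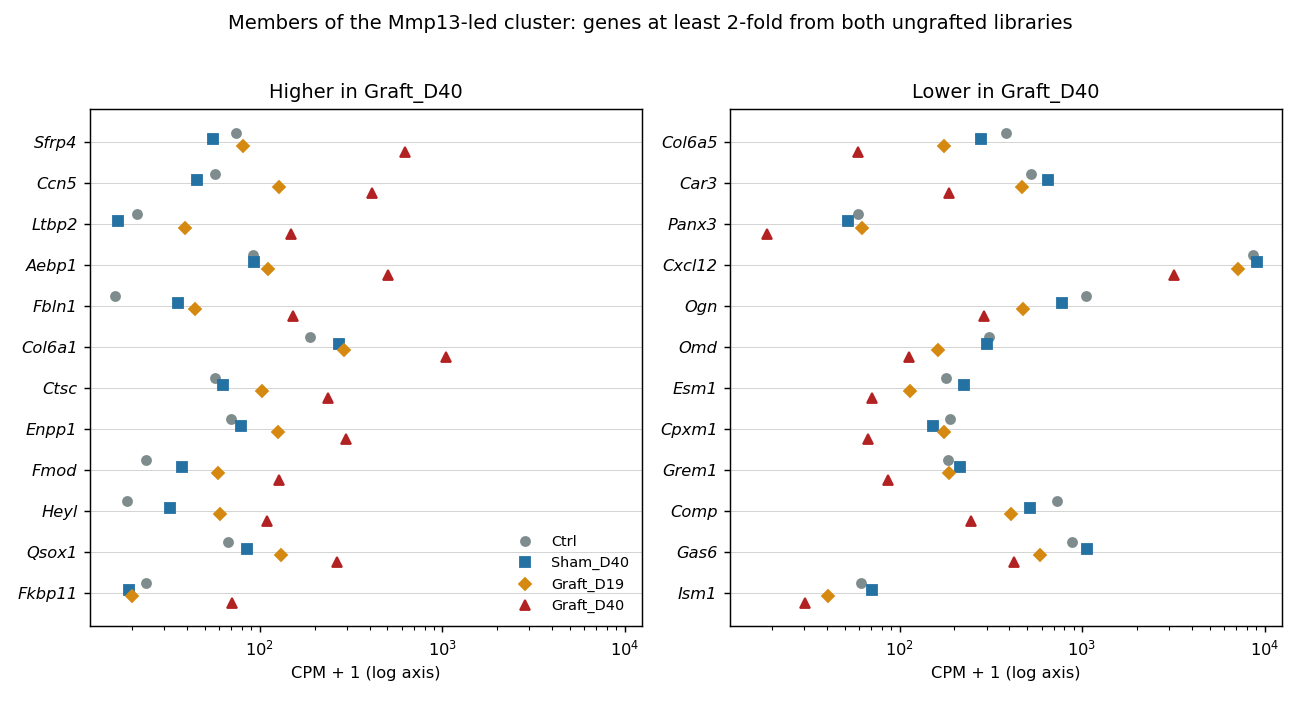
Level (CPM + 1, log axis) of the 12 genes ranked highest (left) and lowest (right) in Graft_D40 against both ungrafted libraries, in members of the Mmp13-led cluster; a point is 1 library, with no error bars. Graft_D40 lies apart from Ctrl and Sham_D40 by at least 2-fold for each gene, which is how the genes were chosen. Graft_D19 lies between for most, but not for Fkbp11, Panx3, Cpxm1 and Grem1.

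More genes of the collagen list were called higher than lower, and Col6a5, which is not in the list, was lower. In Mmp13-led members 6 of 17 collagen genes were higher and 0 lower (median log2 ratio 0.73 against -0.05 for all genes), and over all members 12 of 19 were higher and 1 lower (median 1.22 against -0.11). The 6 were Col1a1, Col4a1, Col4a2, Col6a1, Col6a2 and Col6a3. Col6a3 was at 233, 417, 393 and 1067 CPM and Col6a2 at 193, 308, 283 and 843 CPM in Mmp13-led members, both highest in Graft_D40 with Graft_D19 near Sham_D40. Col1a1 was at 1698, 1948, 2737 and 4223 CPM, 2.17-fold (95% interval 2.06 to 2.28) higher, while in the endothelial class it went from 94.7 to 409 CPM, and the part of free RNA in the difference was not tested. Col4a1 was more abundant in endothelium (1973 CPM in Graft_D40) than in Mmp13-led members (359.9 CPM), with the same limit. Col3a1, at 274, 704, 516 and 1038 CPM in Mmp13-led members and 258, 983, 1263 and 3361 CPM over all, was called over all members and not in Mmp13-led members, and the difference between the sets was not tested. Collagen-modifying enzymes had 4 of 24 genes higher and 0 lower in Mmp13-led members, among them the prolyl hydroxylase P4ha2 (20.3, 17.4, 12.1 and 53.7 CPM).

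Matrix glycoproteins and proteoglycans were called in both directions. In Mmp13-led members 9 of 40 were higher and 8 lower (median 0.02), and over all members 11 of 45 were higher and 5 lower (median 0.11). The lower ones included Igfbp4 (3745, 2919, 2414 and 1342 CPM) and Igfbp5 (1893, 2277, 1617 and 991 CPM), secreted binders of insulin-like growth factors, both lowest in Graft_D40. Among proteases and their inhibitors 5 of 25 were higher and 1 lower. Htra1, a secreted serine protease, was at 101, 139, 261 and 391 CPM and was 2.81-fold (95% interval 2.33 to 3.39) higher in Graft_D40 than in Sham_D40. The metalloprotease inhibitor Timp1 was at 568, 144, 564 and 1544 CPM, lowest in Sham_D40 and highest in Graft_D40, and 5 cells held 46.1% of its UMIs in Sham_D40 and 55.5% in Graft_D40. Its thinned share of cells was 25.3, 14.9, 22.9 and 43.6% against 1.91, 1.62, 2.72 and 4.03% in endothelium (unthinned 38.4, 36.1, 53.3 and 71.6% and 4.73, 4.72, 11.1 and 14.6%).

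Genes that support blood stem cells formed the list with the lowest median among those with 5 or more tested genes. In Mmp13-led members 0 of 13 niche factors were higher and 6 lower (median -0.84): Angpt1, Bmp4, Cxcl12, Ebf3, Flt3l and Kitl. Over all members 2 of 15 were higher (Cxcl13 and Ptn) and 5 lower (median -0.68). Kitl, which encodes stem cell factor, was at 729.7, 921, 684 and 382 CPM in Mmp13-led members, 2.41-fold (95% interval 2.15 to 2.71) lower in Graft_D40 than in Sham_D40. Ebf3, a transcription factor of reticular stroma, was at 261, 375, 345 and 180.0 CPM and the vascular ligand Angpt1 at 63.3, 106, 97 and 47.1 CPM. The Graft_D40 level of Kitl, Ebf3 and Angpt1 was below that of Ctrl by less than 2-fold. The LepR class went the same way, with Kitl at 2115, 2685, 1847 and 1056 CPM and Cxcl12 at 33665 CPM in Sham_D40 and 20506 CPM in Graft_D40. In endothelium Kitl was at 121, 229, 109.6 and 239 CPM.

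Mineralisation genes were called in both directions, and the counts depended on which cells were summed. Over all members 2 of 19 genes of the osteoblast and mineralisation list were higher and 9 lower (median -0.62). In Mmp13-led members 4 of 18 were higher (Ank, Dmp1, Enpp1, Spp1) and 3 lower (Car3, Omd, Phex), with a median of -0.12. Ank, which exports pyrophosphate, was at 73.5, 54, 134 and 331 CPM, 6.13-fold (95% interval 4.67 to 8.17) higher, and Enpp1, which makes pyrophosphate, at 68.4, 78.3, 124 and 296 CPM, 3.78-fold (95% interval 2.98 to 4.83) higher. Both were highest in Graft_D40 and second in Graft_D19. Spp1 in Mmp13-led members was at 48583, 23748, 28319.9 and 57324 CPM, 2.41-fold (95% interval 2.38 to 2.45) higher than in Sham_D40, but Ctrl stood near Graft_D40, and 5 cells held 50.8% of its UMIs in Ctrl and 38.9% in Graft_D40. The near-identical Bglap, Bglap2 and Bglap3 can share reads, so their separate levels are uncertain. Osteocalcin (Bglap) was at 1097, 636, 379 and 533 CPM in Mmp13-led members and was not called between Graft_D40 and Sham_D40 there.

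Transcription factors of the bone lineage had no call in Mmp13-led members. There 0 of 14 were higher or lower, against 1 of 15 higher and 5 lower, Runx2 and Sp7 among them, over all members. Of all tested genes, 1.9% were called higher and 1.95% lower in Mmp13-led members, so 0 of 14 is near that share. Over all members these shares were 4.14% and 4.22%. Runx2 was at 674, 633, 612 and 494 CPM in Mmp13-led members, and 1.28-fold (95% interval 1.15 to 1.44) lower in Graft_D40 than in Sham_D40. A Runx2 UMI was found in 66.3, 76.3, 69.5 and 55.4% of thinned Mmp13-led cells (unthinned 79.8, 94.1, 93.4 and 94.1%). Mmp13 was 2-fold (95% interval 1.94 to 2.06) lower over all members and 1.04-fold (95% interval 1.01 to 1.08) higher in Mmp13-led members, at 5639.9, 6197, 7916 and 6467 CPM. Mmp13 is a rule gene and leads the cluster, so its levels in both sets are partly fixed by the choice of cells. Its ratios are a description. Among the other rule genes Kcnk2, a potassium channel, was at 661, 604, 540.2 and 542 CPM and Lrp4, a receptor of sclerostin, at 469, 289, 314 and 231 CPM in Mmp13-led members. Angpt4, an angiopoietin, was at 332, 311, 305 and 161 CPM and lowest in Graft_D40. The guidance ligand Slit2 was at 218, 318, 277 and 389 CPM and the synaptic adhesion gene Slitrk6 at 78.5, 84.4, 132 and 141 CPM, both highest in Graft_D40.

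Genes of the Wnt list and of the BMP and TGF-beta list were called in both directions, and 1 of 3 tested osteoclast regulators was called higher in Mmp13-led members. Tnfsf11 (RANKL), the osteoclast differentiation factor, was at 30.4, 58.3, 73.5 and 134 CPM in Mmp13-led members, 2.29-fold (95% interval 1.7 to 3.12) higher in Graft_D40 than in Sham_D40. A Tnfsf11 UMI was found in 8.43, 11.4, 10.7 and 20.8% of thinned cells and 0.147, 0.108, 0.375 and 0.179% of thinned endothelial cells (unthinned 9.09, 32.8, 32.1 and 52.9% and 0.215, 0.629, 0.638 and 1.13%). Its decoy receptor Tnfrsf11b was at 10.1, 31.3, 10.6 and 28.3 CPM and was not called there. In the Wnt list 3 of 15 genes were higher (Dkk1, Nkd2, Sfrp4) and 1 lower, the agonist Rspo2 at 35.5, 46.1, 21.2 and 5.65 CPM, 8.16-fold (95% interval 3.51 to 23.2) lower. In the BMP and TGF-beta list 4 of 31 were higher (Bmp2, Ltbp2, Tgfb2, Tgfb3) and 4 lower (Bmp4, Grem1, Tgfbi, Tgfbr3), with a median of -0.16.

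Some cell-cycle and interferon genes were called over all members and none in Mmp13-led ones, and Acta2 was called in both sets. Acta2 (smooth muscle actin) was at 7.17, 3.12, 33.1 and 441 CPM over all members and 7.6, 3.48, 3.03 and 43.3 CPM in Mmp13-led members, and in Graft_D40 at 970 CPM in members of the fibroblast-like cluster and 776 CPM in dividing members. In Mmp13-led members it was 12.5-fold (95% interval 4.55 to 47.6) higher in Graft_D40 than in Sham_D40, and 5 cells held 93.5% of the Graft_D40 UMIs. The activated-fibroblast list had 11 of 20 genes higher and 2 lower over all members (median 1.21) and 6 of 19 higher and 0 lower in Mmp13-led members (median 0.58). S100a4 was among the 6, at 27.9, 43.5, 25.8 and 304 CPM, while in endothelium it was at 23.2, 85.1, 84.1 and 189 CPM. Pericyte and smooth muscle markers summed to 136, 268, 299 and 991 CPM over all members and 129, 250, 180 and 371 CPM in Mmp13-led members, and 12 fibroblast markers to 1768, 3468, 3883 and 6743 CPM and 1779, 2756, 2352 and 2982 CPM. Cell-cycle genes had 5 of 9 higher over all members and 0 of 5 in Mmp13-led members, and interferon genes 4 of 29 and 0 of 26. The Mmp13-led set leaves out the cluster of dividing cells, so its cell-cycle count is in part built in. Of all tested genes, 4.14% were called higher over all members and 1.9% in Mmp13-led members. Counts of 0 of 5 and 0 of 26 are near the latter share. Glycolysis genes had 5 of 15 higher over all members and 2 of 15 in Mmp13-led members.

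**Figure D5:**
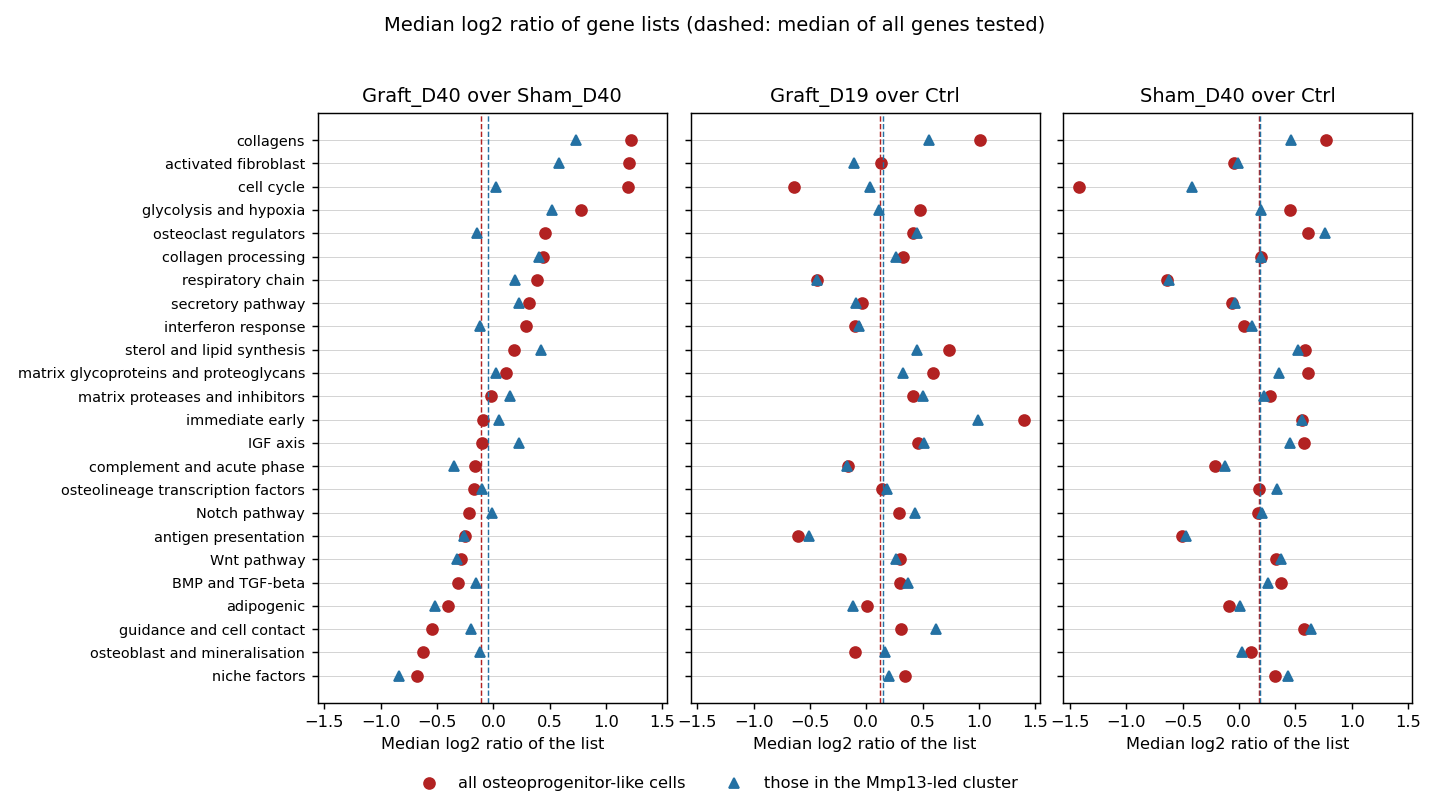
Median log2 ratio of each gene list with 5 or more tested genes in 3 comparisons of libraries, for all osteoprogenitor-like cells (circles) and those of the Mmp13-led cluster (triangles); dashed lines mark the median of all tested genes. Collagens and niche factors lie at opposite ends for Graft_D40 over Sham_D40 (0.73 and -0.84 in Mmp13-led cells), and immediate early genes are highest for Graft_D19 over Ctrl.

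The comparison of Graft_D19 with Ctrl addresses the early stage. Over all members 479 of 6536 genes were called higher (7.33%) and 192 lower (2.94%), and in Mmp13-led members 507 of 6506 (7.79%) and 184 (2.83%). The Ctrl library was the shallowest. Sham_D40 against the same Ctrl, a comparison that shares its control, had more calls, with 654 of 6614 genes higher (9.89%) and 290 lower (4.38%) over all members and 628 of 6567 (9.56%) and 270 (4.11%) in Mmp13-led members. Against Sham_D40 in place of Ctrl, Graft_D19 had 58 genes higher and 46 lower over all members. The median log2 ratio of all tested genes was 0.13 for Graft_D19 and 0.17 for Sham_D40 over Ctrl. With size factors, 55.7% of the Graft_D19 calls were higher in place of 71.4%, and 50.1% of the Sham_D40 calls in place of 69.3%.

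Immediate early genes were called higher, and none lower, at day 19. Over all members 13 of 21 were higher than in Ctrl and 0 lower (median 1.40), and in Mmp13-led members 11 of 21 and 0 (median 0.99), while Sham_D40 had 7 higher and 2 lower over all members. Fos was at 261, 572, 930.4 and 484 CPM and Junb at 134, 198, 392 and 199.8 CPM in Mmp13-led members, both highest in Graft_D19, and Fos in endothelium was at 1381, 884, 749 and 257 CPM. These genes are known to respond to tissue digestion, and the part of handling was not tested. Osteocalcin genes were lower, with Bglap in Mmp13-led members 2.9-fold (95% interval 2.54 to 3.3) lower than in Ctrl and 1.68-fold (95% interval 1.5 to 1.89) lower than in Sham_D40. Collagens had 9 of 17 higher over all members and 3 of 17 in Mmp13-led members, and Sham_D40 had 7 of 19 and 5 of 18.

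In Graft_D19, 20 genes were at least 2-fold higher and 2 at least 2-fold lower than in both ungrafted libraries over all members, at 50 CPM or more where they were higher. In Mmp13-led members 9 were higher and 3 lower in this way. Leaving out genes with over 20% of their UMIs in 1 cell and genes whose endothelial level was too high for the ranking rule, 5 genes were higher over all members (Ccn5, Ltbp2, Kng1, Pdia5, Heyl) and 1 lower (Cryab), and in Mmp13-led members 3 were higher (Ccn5, Kng1, Ncald) and 1 lower (Chrdl1, a BMP antagonist, at 127, 115, 56.1 and 66 CPM). Ccn5 in Mmp13-led members was 2.28-fold (95% interval 1.46 to 3.74) higher in Graft_D19 than in Ctrl and 2.87-fold (95% interval 2.09 to 4) higher than in Sham_D40. Kng1 (kininogen) was at 22.8, 20.88, 50.01 and 43.34 CPM there, highest in Graft_D19. Ncald, a neuronal calcium sensor, was at 15.2, 27.8, 59.1 and 42.4 CPM. Graft_D19 and Graft_D40 were compared with different controls, and the size of their differences was not compared by a test.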

How the data were processed

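The authors deposited raw UMI counts per gene and cell barcode for 4 droplet libraries (3-prime v3.1 chemistry, per the labels' protocols), 1 library per group. Cell Ranger 3.1.0 and mm10 are named in the submitters' processing notes, and Cell Ranger 5.0.0 per the file headers. Cells with at least 500 genes, at least 1000 UMIs and at most 10% mitochondrial UMIs were kept. Doublets were called with an expected rate of 6% and kept in (2 members were called). Cells were clustered with scanpy 1.11.5 (2000 variable genes, 30 components, 15 neighbours, resolution 1, 27 clusters). Counts of a gene were summed over the members of a library and divided by their total (CPM), so a low total in Ctrl gives the widest intervals. No test over samples was possible. Gene coordinates come from GENCODE on mm10 and promoters from RefSeq. The counting rule was tested on simulated sums with counting error only. That simulation had no spread between cells or libraries, so it cannot show how the calls hold against such spread. The members, gene lists, genes named by rank (at 50 CPM or more and 2-fold from both ungrafted libraries, leaving out genes of which 1 cell held over 20% of UMIs and genes with a high endothelial level) and alternatives were chosen with earlier results of these data known. Alternatives were size factors, equal cell weights, other minimums, folds and pseudocounts, doublets left out, a stricter rule, thinning, another comparator and Mmp13-led members alone. One gene of a list is not reported here by name. Intervals used scipy 1.17.1 and tables pandas 2.3.3, under Python 3.11.15 with numpy 2.4.6.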

Additional observations from a re-analysis of the deposited data

Results flagged for a closer look

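Antibody features named B0301 and B0302 were counted in the Sham_D40 and Graft_D40 libraries, and the comparisons above do not use them. In Sham_D40 the osteoprogenitor-like cells had a median of 327.5 UMIs of B0301 and 7 of B0302, and B0301 led in all 132. In Graft_D40 they had a median of 568 UMIs of B0302 and 1 of B0301, and B0302 led in all 201. The same feature led in all 4570 and 4920 kept cells of these libraries. The labels do not say what the features mark.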

How the results depend on the processing

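No paired analysis was possible because each group is 1 library and the labels carry no replicate numbers. Single libraries limit every comparison, the shallow Ctrl library limits those against it, and the cause of the changes below was not tested. For Graft_D40 over Sham_D40, genes called higher and lower numbered 185 and 147 with cells weighted equally, 646 and 731 with no minimum CPM, 173 and 133 at 50 CPM, 709 and 1120 at 1.5-fold and 130 and 133 in Mmp13-led members, with 133 lower after thinning and 555 higher against Ctrl. For Graft_D19 over Ctrl they were 749 and 333 with no minimum, 167 and 91 at 50 CPM, 893 and 513 at 1.5-fold and 58 and 46 against Sham_D40, with 312 higher after thinning. For Sham_D40 over Ctrl they were 258 and 166 at 50 CPM and 1139 and 687 at 1.5-fold, with 430 higher under size factors, 334 higher after thinning and 450 lower with no minimum. After thinning 60.5% of the Graft_D40 calls were higher. Shares in Ctrl, Graft_D19 and Graft_D40 were 3.36%, 4.39% and 4.65% with 3 or more rule genes. Over all cells they were 2.53% (Ctrl), 2.89% (Sham_D40), 3.45% (Graft_D19) and 4.09% (Graft_D40). Mmp13-led members made 4.18% (Graft_D19) and 3.08% (Graft_D40), and thinning gave 3.53% in Graft_D40. After thinning, of the named-gene ratios for Graft_D40 over Sham_D40, 18 no longer passed, 2 newly passed and 33 kept their call, and 7 list medians moved while 19 did not. In Mmp13-led members 10 no longer passed, 9 newly passed and 34 kept their call, and 5 list medians moved. Log2 ratios changed sign for Bglap2 after thinning (0.76) and Mmp13 in Mmp13-led members (0.062) in Graft_D40 over Sham_D40. In Graft_D19 over Ctrl they did for Acta2 with 3 or more rule genes (-1.60) and in Mmp13-led members (-1.09) and for Fmod against Sham_D40 (-1.05), and in Sham_D40 over Ctrl for Fmod after thinning (-0.76).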

Other observations

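Further gene groups were measured in the osteoprogenitor-like cells. Respiratory chain genes had 0 of 28 called higher or lower in Graft_D40 over Sham_D40, with a median log2 ratio of 0.19 in Mmp13-led members and 0.39 over all members. Secretory pathway genes had 1 of 40 higher (Kdelr3, a retrieval receptor of the endoplasmic reticulum, at 60.8, 36.5, 56.8 and 85.7 CPM in Ctrl, Sham_D40, Graft_D19 and Graft_D40) and 0 lower in Mmp13-led members. Antigen presentation genes had 0 of 15 called there, and 10 sterol and lipid synthesis genes had 0 called. Of 11 adipogenic genes 0 were higher and 2 lower, Lifr (a cytokine receptor) and Lpl (lipoprotein lipase, at 281, 335, 215 and 117 CPM). Of 8 complement and acute phase genes 1 was higher (Serpina3g) and 1 lower (C1s1), and 0 of 2 tested cytokine and chemokine genes were called.

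Notch genes had 1 of 8 higher in Mmp13-led members of Graft_D40, the effector Heyl at 17.7, 31.3, 59.9 and 108 CPM, and 0 lower. Guidance and cell contact genes had 1 of 16 higher (Cdh15) and 2 lower (Epha3 and Tenm4). Of 11 IGF axis genes 3 were higher (Htra1, Igfbp3, Igfbp6) and 2 lower (Igfbp4, Igfbp5), and of 4 tested PTH and cAMP response genes Tnfsf11 was higher and 0 were lower. Against this background 1.9% of all tested genes were called higher and 1.95% lower in those cells.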
